A study of Rattus norvegicus with 250 samples.

Results

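Ttr, the gene of transthyretin, and the 50 genes that followed it most closely were examined in hippocampal RNA-Seq libraries of F2 rats. The rule took the row ENSRNOG00000016275 (Ttr) and the 50 rows with the highest Pearson r to it on log2(CPM + 0.5), where CPM is the count of a gene scaled to a library of a mega count. Only the 245 libraries without a failed quality-control label were used, and only rows with a mean of 0.5 CPM or more, which were 14725 of 32883. The 51 genes were thus chosen by the expression values themselves, so their correlations with Ttr are a description without a test. Because these genes move together, a count of them in a later comparison does not count separate observations.

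The F2 rats descended from rats bred for high (bHR, High Responder) and for low (bLR, Low Responder) locomotion in a new enclosure. There were 123 females and 122 males from 12 families, 113 to 132 days old, with 1 library per rat and no drug treatment in the labels. Before death 208 of the rats had been through Pavlovian Conditioned Approach (PavCA) training, in which a cue is paired with food, and 37 had not, 30 of them in the third of 3 sequencing batches. Punches of dorsal and ventral hippocampus were taken from 1 side of each frozen brain, the left in 123 rats and the right in 122. They were taken on 10 labeled days by 2 dissectors, dissector One (80 rats) and the other dissector (165 rats). Both dissectors worked on 7 of the days, and the other dissector alone on days 1, 2 and 3. Males and females were killed on separate dates, so sex cannot be told apart from date of death. Age at death also differed between the sexes, and neither date nor age was in any model. Total counts ran from 17.9 to 31.5 M (mega counts) per library, with a median of 21.6 M.

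Transthyretin carries thyroid hormone and, together with retinol-binding protein, vitamin A. Within the brain it is made mainly by the epithelium of the choroid plexus, the folded tissue in the ventricles that secretes cerebrospinal fluid. Choroid plexus of the lateral ventricle lies against the hippocampus.

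A symbol could be paired with 8 of the 51 identifiers, and the other 43 genes are given by Ensembl identifier only. Of 67 symbols on lists of choroid plexus epithelium genes, 11 could be paired with a row, and 4 of these were among the 51 genes. They were Ttr, Folr1 (a folate receptor that carries folate into cerebrospinal fluid), Spint2 (a membrane inhibitor of serine proteases) and Cox8b (a subunit of cytochrome c oxidase). The 7 that were not among the 51 had r with Ttr between 0.17 for the channel gene Trpm3 and 0.74 for the cell cycle inhibitor Cdkn1c, with 0.70 for the growth factor Igf2. The other named members were C1qtnf3 (a secreted C1q-related protein), Scgb1c1 (a secretoglobin), Cdr2 (a coiled-coil protein) and Ca13 (a carbonic anhydrase).

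Of 66 symbols on lists of other cell types, 10 could be paired and 0 were among the 51 genes. Their r with Ttr ran from -0.42 for Slc17a7, the vesicular glutamate transporter of excitatory neurons, to 0.66 for Ocln, a tight junction gene listed for endothelium. The ependymal gene Tmem212 had r = 0.60. Slc17a7, the only paired marker of hippocampal neurons, was at 446 CPM or more in every library.

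Ranked by r, ENSRNOG00000031249 came first (r = 0.95). Next came ENSRNOG00000005770, ENSRNOG00000049388, ENSRNOG00000011648, ENSRNOG00000029811, Folr1, ENSRNOG00000003960, ENSRNOG00000016838, ENSRNOG00000016057 and ENSRNOG00000054495, the last with r = 0.89. The median over the 50 companions was 0.83, against -0.07 over all 14725 rows. Ca13, at rank 50, had r = 0.7651, and ENSRNOG00000051510, just outside at rank 51, had r = 0.7639. The list therefore ended within a continuous decline, and 110 rows had r over 0.7.

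Ttr was abundant and highly uneven between libraries. Its level ran from 0.895 to 11816 CPM around a median of 2563 CPM, with quartiles of 1168 and 4649 CPM. By mean CPM it ranked 13 among all rows, and in the library with the most it made up 1.18% of all counts. In bulk tissue, fewer cells of a type and less RNA per cell cannot be told apart.

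The libraries that stood apart were low rather than high. Over the 245 libraries, 0 exceeded 5 times the median of Ttr (exact 95% binomial interval up to 1.49%), and 54 exceeded 2 times the median. In contrast, 23 libraries lay under 10% of the median (9.39%, exact 95% interval 6.04 to 13.8%). Libraries are named here by sex and number. Female 7 had 17 counts of Ttr (0.895 CPM), Male 5 had 20 (0.942 CPM) and Male 2 had 20 (1.04 CPM). The most Ttr was in Female 122 (11816 CPM), Female 79 (11089 CPM) and Female 103 (10851 CPM).

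The companions were low in the same 23 libraries, which the rule favors, but not to the same depth. Folr1 had a median of 1.63 CPM there (range 0.211 to 3.95) and 23.4 CPM in the other 222 libraries. Scgb1c1 had medians of 0.258 and 5.28 CPM, and Cox8b of 0.368 and 3.33 CPM. Spint2 fell less, with medians of 31.1 and 48.3 CPM, and so did Cdr2, with 11.1 and 23.3 CPM. Of the 50 companions, 4 had every low library below every other library, namely ENSRNOG00000049388, ENSRNOG00000029811, ENSRNOG00000003960 and Folr1.

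Markers of other cells also differed between these sets of libraries. The median of Slc17a7 was 2144 CPM in the 23 libraries and 1519 CPM in the others, that of Ocln 13.2 and 18.0 CPM, and that of Tmem212 1.71 and 4.1 CPM. That of Hbb, a hemoglobin gene of red blood cells, was 96.7 and 185 CPM. Of the 10 paired markers of other cell types, 7 had a lower median in the 23 libraries and 3 a higher one. Their part in the differences of the 51 genes was not tested.

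**Figure D1:**
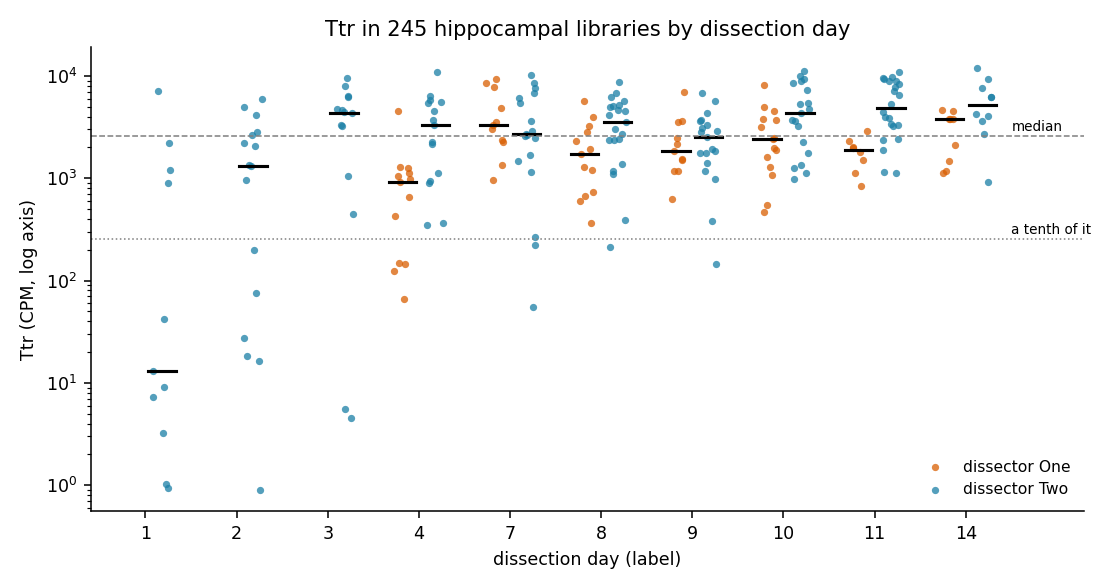
Ttr in CPM (log axis) in each of the 245 libraries by labeled dissection day and dissector, with medians as black bars and horizontal lines at the overall median and 10% of it. Of 27 libraries from days 1 and 2, 13 lie under the lower line, and of 83 from days 10, 11 and 14, 0 do.

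Libraries poor in Ttr were most frequent on the first dissection days. On day 1, 7 of 11 were under 10% of the median (63.6%, exact 95% interval 30.8 to 89.1%). On day 2 it was 6 of 16, on day 3, 2 of 14, and on day 4, 4 of 28. On day 7 it was 2 of 29, on day 8, 1 of 34, and on day 9, 1 of 30. On days 10, 11 and 14 it was 0 of 34, 0 of 30 and 0 of 19, which allows shares of up to 10.3, 11.6 and 17.6% by the same interval. The highest level of day 1 was 7189 CPM in Female 100, the only library of that day in sequencing batch 3, and the highest of the 10 others was 2187 CPM in Female 5, below the overall median.

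The median of Ttr by day was 13.1 CPM on day 1, 1328 on day 2, 4375 on day 3, 1122 on day 4, 2893 on day 7, 2585 on day 8, 2049 on day 9, 3446 on day 10, 3357 on day 11 and 3812 CPM on day 14. The ranges of all 10 days overlapped. Sequencing batch 1 held 21 of the 23 low libraries, batch 2 held 2 and batch 3 held 0. Within batch 1 the low libraries were 7 of 10 on day 1, 6 of 16 on day 2, 2 of 14 on day 3, 4 of 28 on day 4 and 2 of 27 on day 7. Low libraries fell on both sides (12 left, 11 right), in both sexes (12 females, 11 males) and in 10 of the 12 families. Family 12 had the highest median, 6251 CPM, with 9 of its 13 libraries above 2 times the overall median. Most of its libraries were in sequencing batch 3, which held none of the low ones, so this family and batch overlap. Family was not tested.

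Day was then added to the model of the study for LocoScore (beam breaks in a new enclosure). The fit used limma-voom with sex, percent ribosomal RNA, percent intergenic, dissector, PavCA experience, sequencing batch and LocoScore. The false discovery rate was 0.10 over 19448 genes. LocoScore was in every model for day, dissector, side and sex, including those described below with sex, or sex and day, alone. Day differed for 24 of the 51 genes, and for 51.4% of all genes, so the share of members was near the background. The smallest p among the members was that of ENSRNOG00000016957 (adjusted p = 1.11e-05, limma), followed by ENSRNOG00000023162, ENSRNOG00000009779, Ttr (adjusted p = 0.0102, limma) and ENSRNOG00000008543. Without days 1 to 3 the count was 8 of 51, with 37.1% of all genes called, and Ttr had an adjusted p of 0.305 (limma).

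**Figure D2:**
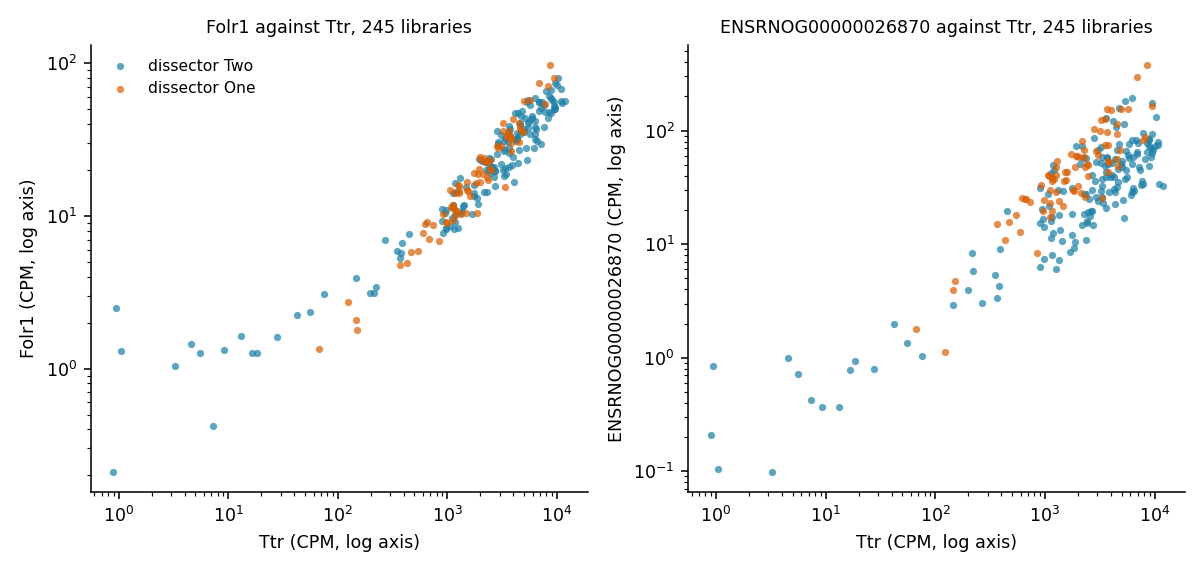
Folr1 and ENSRNOG00000026870 against Ttr in the 245 libraries, in CPM on log axes and by dissector. Folr1 stays between 0.211 and 3.95 CPM in the libraries poor in Ttr, and ENSRNOG00000026870 scatters widely at high Ttr, up to 379 CPM.

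Over all days the range of Ttr was wider for the other dissector. The median was 1910 CPM for One (range 66.7 to 9406, n = 80) and 3262 CPM for the other dissector (range 0.895 to 11816, n = 165). The other dissector had more low libraries (19 of 165 against 4 of 80 under 10% of the median) and also more high ones (48 of 165 against 6 of 80 above 2 times the median). On the log2(CPM + 0.5) scale the means were 10.74 ± 1.39 (SD, n = 80) and 10.79 ± 2.76 (SD, n = 165). The difference of means was -0.05 (p = 0.875 by a two-sided permutation test, adjusted p = 0.875 for 3 comparisons). The permutation test compared the means and not the SDs. Days 1 to 3, when the other dissector worked alone, held 15 of these 19 low libraries. Without those days the SDs were 1.39 (n = 80) and 1.44 (n = 124), 4 of 80 and 4 of 124 libraries were under 10% of the median, and 6 of 80 and 42 of 124 were above 2 times the median.

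Within the 7 shared days, One was the lower. The median of One was below that of the other dissector on 6 of these days. On day 11 it was 1903 CPM for One and 4829 CPM for the other dissector, and on day 4 it was 914 and 3335 CPM. The exception was day 7, with 3337 CPM for One and 2680 CPM for the other dissector. The mean log2 level over these days together, One minus the other dissector, differed by -0.79 (n = 80 and 124, permutation p = 1.8e-04, adjusted p = 5.4e-04 over 3 comparisons). The permutation moved labels across days, so it is not a test within days. By sequencing batch the difference was 0.55 in batch 1 (permutation p = 0.511, adjusted p = 0.847), -0.46 in batch 2 (p = 0.0812, adjusted p = 0.122) and -1.10 in batch 3 (p = 2.8e-04, adjusted p = 8.4e-04).

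In the model of the study the sign was opposite. Ttr was 1.04 ± 0.32 higher for One on the log2 scale (SE, adjusted p = 0.0211, limma), and it was the only 1 of the 51 genes called. The background was 14.9% of all genes, 9.71% higher and 5.24% lower. The call was lost with edgeR's quasi-likelihood test (0.26, adjusted p = 0.582), with DESeq2 (0.26, adjusted p = 0.472) and on the 7 shared days with day in the model (0.10 ± 0.27, SE, adjusted p = 0.895, limma). In that last fit 0 of the 51 genes were called, where 3.0% of all genes were higher and 4.34% lower. Likewise limma called 0 of the 51 without days 1 to 3 (background 2.57% higher and 3.88% lower) and 0 with rank-normalized expression (6.76% higher and 4.54% lower).

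The sign changed with the covariates. With sex as the only covariate and all days, 6 of the 51 genes were higher for One and 23 lower, where 41.0% of all genes were higher and 41.1% lower. With sex and day only, on the shared days, a fit added after the data were seen, the difference of Ttr was -0.83 ± 0.20 (SE, adjusted p = 5.61e-05, limma).

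In that fit 37 of the 51 genes were lower for One and 4 higher, where 44.7% of all genes were lower and 40.1% higher. Scgb1c1 differed by -1.55 ± 0.23 (SE), Cox8b by -1.19 ± 0.19, Folr1 by -0.50 ± 0.16 and Spint2 by -0.20 ± 0.05. The smallest p belonged to ENSRNOG00000038480 (-0.50 ± 0.05, SE). The 4 that were higher were ENSRNOG00000039107 (0.51 ± 0.17), ENSRNOG00000026870 (0.42 ± 0.19), ENSRNOG00000010378 (0.36 ± 0.19) and ENSRNOG00000001092 (0.32 ± 0.18).

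The intergenic percentage, a measure of RNA composition, moved with both dissector and Ttr. It was 14.5 ± 1.15% for One (SD, n = 80) and 12.8 ± 1.63% for the other dissector (SD, n = 165). Its r with log2 Ttr was -0.50 and its rho -0.54 (n = 245, permutation p = 1e-05 for each, the smallest possible, adjusted p = 4e-05 and 2e-05 over 4 measures). Without the 2 most distant libraries r was -0.49, within batches 1, 2 and 3 it was -0.57, -0.49 and -0.44, and within dissector One and the other dissector it was -0.17 and -0.64. The median was 15.3% in the 23 libraries poor in Ttr and 12.9% in the others. The part of RNA composition in the dissector difference was not tested.

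The other RNA measures followed Ttr less. RNA concentration had r = -0.11 (permutation p = 0.0745, adjusted p = 0.0993) and rho = -0.30 (permutation p = 1e-05, adjusted p = 2e-05), and r was -0.16, -0.23 and -0.38 within the batches. Outside the libraries poor in Ttr its r was -0.31. It also differed by dissector, at 230 ± 78.3 for One (SD, n = 80) and 121 ± 69.0 for the other dissector (SD, n = 165), in the units of the labels. Its part in the dissector difference was not tested. Total counts had r = 0.21 (permutation p = 0.00122, adjusted p = 0.00244) and rho = 0.23, with r between 0.12 and 0.17 within the batches. The RNA integrity number had r = 0.01 (permutation p = 0.886, adjusted p = 0.886), and its median was 9 in the libraries poor in Ttr and in the others.

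**Figure D3:**
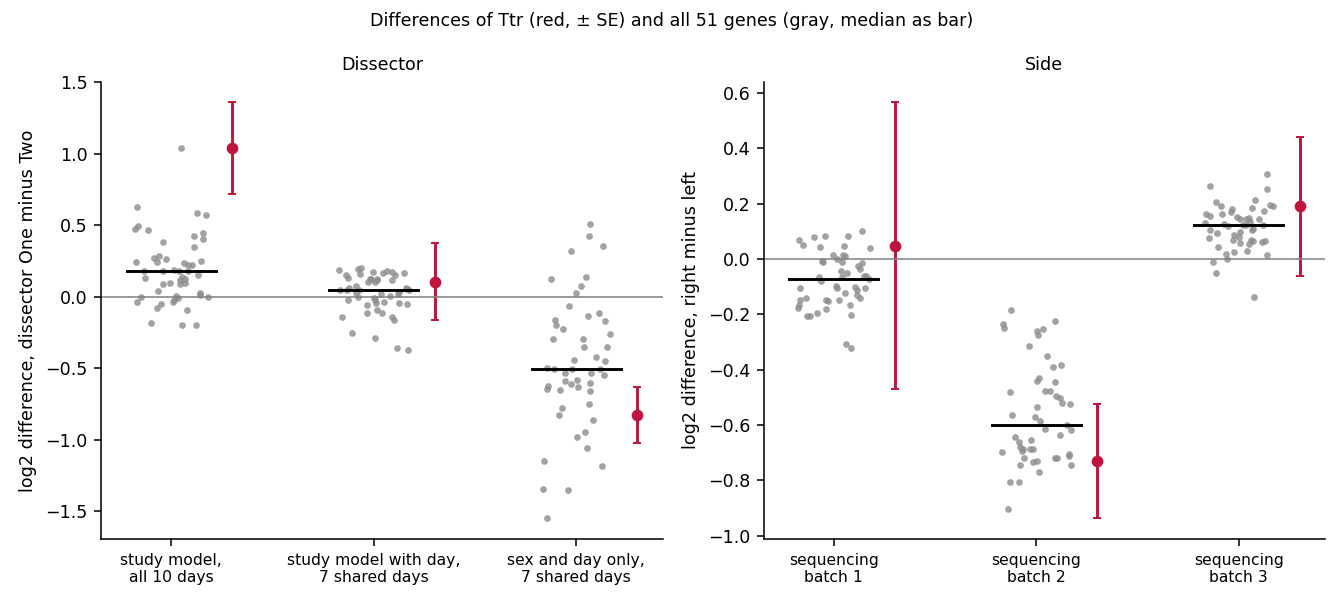
Log2 differences of the 51 genes (gray points, median as a bar) and of Ttr (red, with SE), for dissector One minus the other dissector in 3 fits and for right minus left within each sequencing batch. Ttr is at 1.04, 0.10 and -0.83 in the dissector fits, and all 51 genes are below 0 in batch 2. The share of all genes below 0 in batch 2 was not counted.

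Side did not separate the libraries as a whole. Ttr had a median of 3051 CPM on the left (range 0.942 to 11816, n = 123) and 2354 CPM on the right (range 0.895 to 10851, n = 122), so the sides overlapped almost fully. The log2 means differed by -0.15, right minus left (permutation p = 0.634, adjusted p = 0.875). In the model Ttr differed by -0.19 ± 0.24 (SE), and limma called 0 of the 51 genes, with a background of 0.0%. At an unadjusted p under 0.05 there was 1 of the 51 and 5.39% of all genes. The edgeR and DESeq2 tests also called 0 of the 51.

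Within sequencing batch 2 (49 left, 45 right) all 51 genes were lower on the right, with a median difference of -0.60 and a range from -0.90 to -0.18. Of these, 16 passed the threshold, against a background of 0.484%. The 51 genes were chosen for their correlation with Ttr, so these counts are not separate observations. The share of all genes lower on the right was not counted, so the shared direction is not read as a result about the 51 genes. The smallest p was that of ENSRNOG00000004754 (-0.44 ± 0.10, SE, adjusted p = 0.0359, limma). Folr1 had medians of 32.0 CPM on the left and 18.8 CPM on the right (-0.64 ± 0.17, SE, adjusted p = 0.0938, limma). Spint2 differed by -0.23 ± 0.06 (SE, adjusted p = 0.0667, limma). Ttr, with medians of 3190 and 1931 CPM, missed the threshold (-0.73 ± 0.21, SE, adjusted p = 0.107, limma).

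Neither of the other batches showed this. In batches 1 and 3, limma called 0 of the 51 genes, with backgrounds of 0.0% and 0.00507% at the same threshold. None of the 51 had an unadjusted p under 0.05, a count given without the share of all genes. Ttr differed by 0.05 ± 0.52 and 0.19 ± 0.25 (SE). The interaction of side and batch, added after these values were seen, was called for 0 of the 51 genes (limma, background 0.0%), with 9 of the 51 and 3.73% of all genes at an unadjusted p under 0.05. The side difference was therefore not shown to differ between batches.

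Sex made no difference that passed the test. Ttr had a median of 2697 CPM in females (n = 123) and 2447 CPM in males (n = 122), and the log2 means differed by 0.14 (permutation p = 0.639, adjusted p = 0.875). In the model Ttr was at 0.40 ± 0.25 (SE), female minus male, and limma called 0 of the 51 genes, with a background of 9.08% (4.04% higher and 5.04% lower). At an unadjusted p under 0.05 there were 4 of the 51 and 19.0% of all genes. The edgeR and DESeq2 tests called 1 each, which is not read as a result about the 51 genes without the share of all genes.

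**Figure D4:**
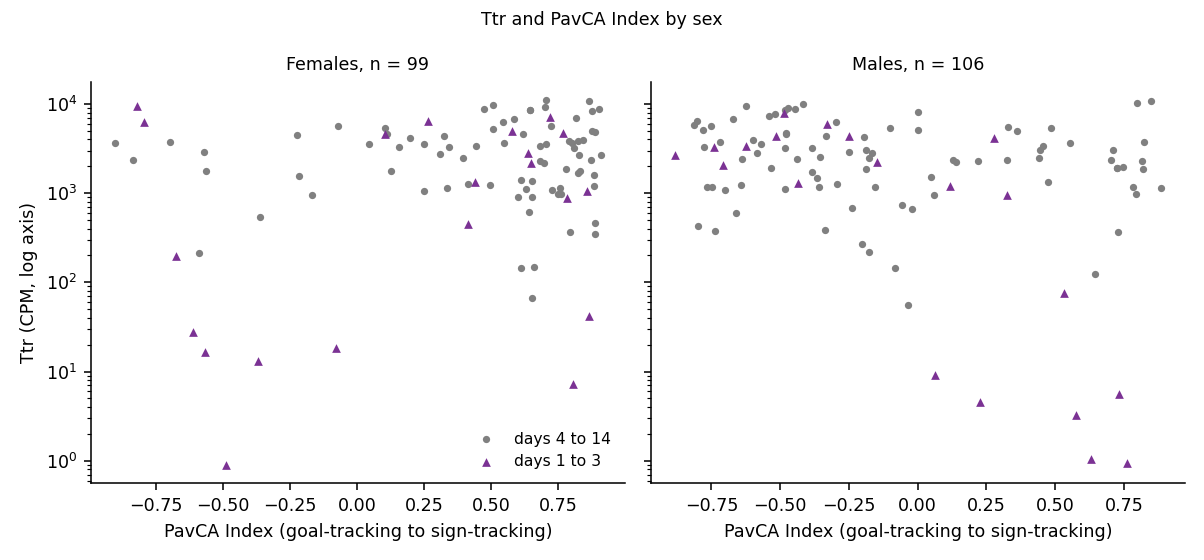
Ttr in CPM (log axis) against the PavCA Index in females (n = 99) and males (n = 106), with libraries of dissection days 1 to 3 marked apart from the later days. Over all days r is 0.22 in females and -0.31 in males, and without days 1 to 3 it is 0.03 and -0.09.

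The behaviors were compared with the 51 genes because the F2 rats vary in traits that separate the bHR and bLR lines. LocoScore counts beam breaks in a new enclosure, the elevated plus maze (EPM) gives anxiety-like behavior, and the PavCA Index (Pavlovian Conditioned Approach) is higher in rats that approach the cue (sign-trackers) than in those that approach the food cup (goal-trackers). For LocoScore, limma called 0 of the 51 genes (background 0.0103%), and 1 of the 51 and 5.23% of all genes had an unadjusted p under 0.05. For EPM distance, time immobile and percent time in open arms it called 0 (background 0.0% for each), with 0, 4 and 0 of the 51 at an unadjusted p under 0.05, against 3.74, 4.27 and 3.9% of all genes. For the PavCA Index it called 0 (background 0.00515%), with 0 of the 51 and 3.71% of all genes at an unadjusted p under 0.05.

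For Ttr alone, the slope on LocoScore was -0.03 ± 0.04 log2 units per 100 beam breaks (SE, n = 245), and that on the PavCA Index was -0.22 ± 0.27 per index unit (SE, n = 205). Without a model, Ttr had r = -0.06 with LocoScore (rho = -0.01), 0.01 with EPM distance (rho = -0.05), 0.03 with time immobile (rho = 0.04), 0.02 with open arms (rho = 0.01) and -0.06 with the PavCA Index (rho = -0.07). The permutation p of r lay between 0.317 and 0.926, with an adjusted p of 0.926 for each of the 5. Without the 2 rats farthest from the median, r lay between -0.05 and 0.03.

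The PavCA Index had opposite signs in the sexes. In females r was 0.22 (rho = 0.06, n = 99, permutation p = 0.0277, adjusted p = 0.138 over 5 behaviors), and in males it was -0.31 (rho = -0.27, n = 106, permutation p = 8.9e-04, adjusted p = 0.00445). The 2 values were nearer 0 without the earliest libraries. Days 1 to 3 held 15 of the 23 libraries poor in Ttr, and without those days r was 0.03 in females (n = 78) and -0.09 in males (n = 86). Within sequencing batch 1, r was 0.24 and -0.34, within batch 2 it was -0.01 and -0.10, and within batch 3, which held no low library, it was 0.23 (n = 20) and -0.44 (n = 6). Without the 2 rats farthest from the median index, r in batch 3 was 0.16 and -0.10. In the model of the study, the slope of Ttr was 1.5 ± 0.54 (SE) greater in females (adjusted p = 0.581, limma), and 0 of the 51 genes were called for this interaction, with a background of 0.0%. At an unadjusted p under 0.05 there were 6 of the 51 and 8.5% of all genes.

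**Figure D5:**
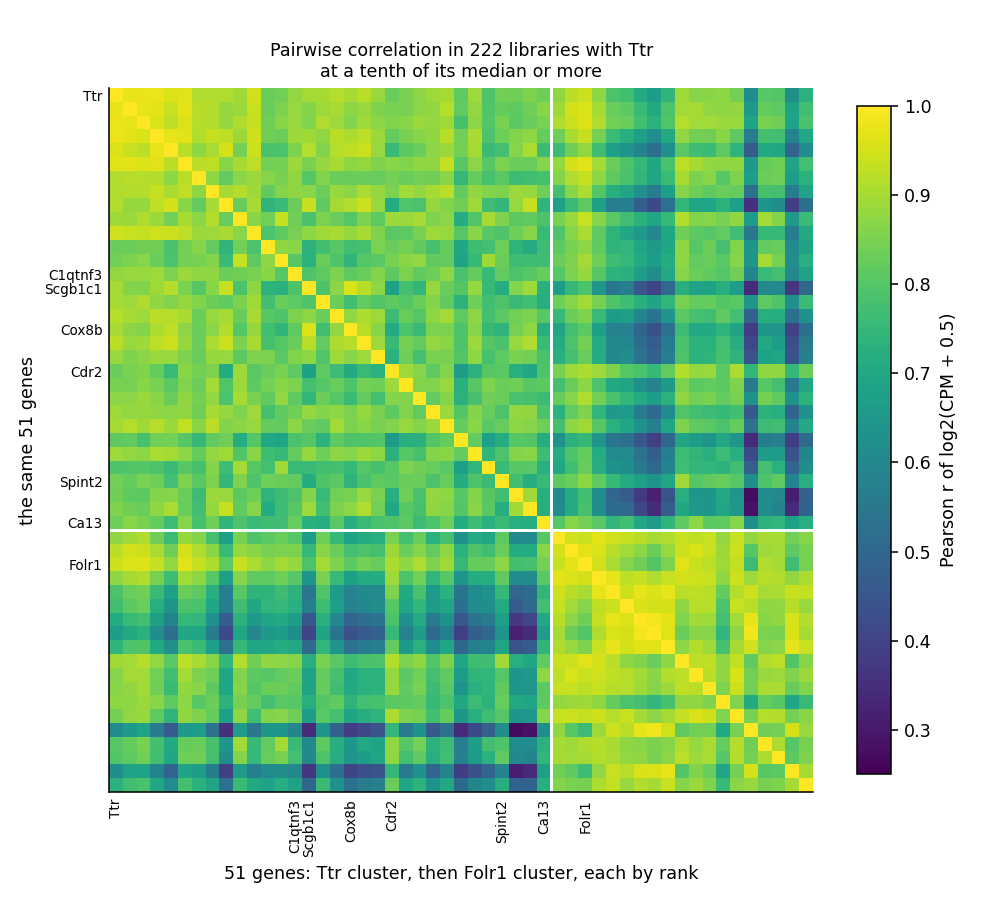
Pearson r of log2(CPM + 0.5) for all pairs of the 51 genes in the 222 libraries with Ttr at 10% of its median or more, ordered by cluster and rank. The block of 32 genes with Ttr has a median r of 0.85, the block of 19 with Folr1 0.90, and pairs between the blocks 0.74.

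Among themselves the 51 genes formed more than a single block. Over all 245 libraries their pairwise r ran from 0.50 to 0.99, with a median of 0.86. In the 222 libraries outside the low ones it ran from 0.27 to 0.99, with a median of 0.82. Average-linkage clustering of these 222 libraries, cut in 2 after the values were seen and given without a test, placed 32 genes with Ttr and 19 with Folr1. Scgb1c1, Cox8b, C1qtnf3, Cdr2, Spint2 and Ca13 were in the cluster of Ttr. Folr1 was close to both, with r = 0.94 to Ttr and 0.80 to ENSRNOG00000026870. The latter, of rank 13 and singled out after its values were seen, had r = 0.67 to Ttr and 0.99 to ENSRNOG00000001092.

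Single libraries with very high levels were seen for some companions, though not for Ttr. ENSRNOG00000026870 had a median of 36.2 CPM and exceeded 5 times that median in 4 libraries. These were Female 39 with 379 CPM (day 7, dissector One), Female 75 with 299 CPM (day 9, One), Female 17 with 194 CPM (day 3, the other dissector) and Male 22 with 184 CPM (day 4, the other dissector). They came from both sides, 2 left and 2 right. Female 39 held the highest value of 18 of the 19 genes in the cluster of Folr1, and its Ttr was 8611 CPM. In Female 122, which had the most Ttr, ENSRNOG00000026870 was at 32.6 CPM, below its median.

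In the cluster of Ttr, Scgb1c1 exceeded 5 times its median in 19 libraries and Cox8b in 9. The highest value was 13.6 times the median for Scgb1c1 (62.7 CPM in Female 122) and 2.01 times for Spint2 (94.8 CPM in Female 39). The balance of the clusters was then described by dissector on the 7 shared days. The median log2 level of the cluster of Folr1 minus that of Ttr was 0.37 for One (range -2.39 to 1.37) and -0.26 for the other dissector (range -1.86 to 0.97), and the ranges overlapped. The intergenic percentage moved with this balance (r = 0.59 and rho = 0.66, n = 204), with r = 0.38 within One and 0.42 within the other dissector, and its medians on these days were 14.5 and 12.1%. Its part in the balance was not tested.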

How the data were processed

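The authors deposited whole-number counts per gene, without normalization. According to the study and the labels, reads were aligned to Rnor6 with STAR 2.7.3a and counted by strand on Ensembl 103 with Subread 2.0.0. Symbols were taken where supplementary tables of the study paired them with an identifier, because the RefSeq table used here (GRCr8) carries no Ensembl identifiers, and that of Ttr came with the rule for the members. The members and lists used here were chosen with earlier results of these data known. Rows with 1 or more reads in 25% of the rats were scaled by TMM and tested in R 4.3.3 with limma 3.58.1 (voom), with Benjamini-Hochberg adjustment over all genes at a false discovery rate of 0.10. The intergenic share was recomputed as what the mRNA, intronic and ribosomal fractions leave, and sequencing batch was inferred from gaps in the title numbers (3 batches). The test of Ttr alone was a two-sided permutation test with 100000 resamples. Alternatives were edgeR 4.0.16, DESeq2 1.42.0, other filters, covariates and sample sets. On simulated data for the dissector comparison (19425 genes), 180 of 200 genes changed by 0.75 (log2) were recovered, with 29 false calls. Named genes were Ttr, the leading 10 companions, companions on the marker lists, up to 5 called per direction and the pair at the edge of the list. Intervals cover the counting of libraries only. Each library is from a separate rat.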

Additional observations from a re-analysis of the deposited data

Results flagged for a closer look

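The correlation of Ttr with the PavCA Index differed between the sexes. Its r was 0.22 in females (n = 99) and -0.31 in males (n = 106), a difference of 0.532 (permuting sex, 20000 permutations, p = 0.0013, adjusted p = 0.0065 over 5 behaviors). On ranks taken over both sexes together, r was 0.08 and -0.24, a difference of 0.315 (permutation p = 0.0333, adjusted p = 0.167). Without dissection days 1 to 3 the difference of the unranked r was 0.122 (permutation p = 0.412, adjusted p = 0.720).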

How the results depend on the processing

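No paired analysis was possible because each rat gave 1 library. Family, which the labels do give, was added as a block after seeing the data. With family the number of the 51 genes called for dissector was 4 (background 14.1%), that for day was again 24, and that for side, sex and each behavior was again 0. The number of the 51 genes called for dissector, 1 in the model of the study, was 0 with edgeR, DESeq2, rank-normalized expression, day added, batch 2 alone, the 7 shared days with day in the model, and without days 1 to 3. It was 29 with sex as the only covariate and 41 on the shared days with sex and day only. For day, 24 became 42 with edgeR and with rank-normalized expression, 51 with sex alone and 8 without days 1 to 3. The 24 of the model of the study was itself near the background for day, 51.4% of all genes. For side, 0 became 16 in batch 2. For sex, 0 became 1 with edgeR, DESeq2 and day added. Where no share of all genes is given beside a count, the count is not read as a result about the 51 genes. The cause of these changes was not tested.

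For Ttr, the dissector difference reversed to -0.10 with sex alone, -1.00 in batch 3 and -0.83 on the shared days with sex and day only, and leaving out each library in turn gave 0.94 to 1.25. The side difference reversed to 0.047 in batch 1 and 0.19 in batch 3. The slope on LocoScore became 0.0107 with day added and 0.00227 in batch 3. That on EPM distance, 0.000424 per 100 cm, became -0.000487 with edgeR, -0.00914 without a filter on low counts, -0.00911 with rank-normalized expression, -0.00216 in all 250 libraries, -0.00304 with sex alone, -0.00108 with day added, -0.00221 with family, -0.0464 in batch 2, -0.0388 in batch 3, and -0.0103 to 0.0117 leaving out each library. That on time immobile became -0.0773 in batch 1, and that on open arms -0.0123 with rank-normalized expression, -0.0794 in batch 3, and -0.00503 to 0.0575 leaving out each library.

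By permutation, the dissector difference of Ttr was 0.547 in batch 1, -1.10 in batch 3 and -0.795 without days 1 to 3. The side difference was 0.131, -0.559 and 0.233 in batches 1, 2 and 3, and the sex difference -0.242 in batch 2. The r with LocoScore was 0.0104 in batch 2 and 0.0641 in batch 3. The r with EPM distance was -0.00122 in all 250 libraries, -0.120 and -0.112 in batches 2 and 3, and -0.0787 in males. The r with time immobile was -0.0248 and -0.00147 in batches 1 and 3 and -0.0608 in females, and that with open arms -0.0724 in batch 3 and -0.0261 in males. The r with the PavCA Index was 0.130 in batch 3, 0.219 in females and -0.312 in males, and the difference between the sexes fell to 0.315 on ranks taken over both sexes together and 0.122 without days 1 to 3. At a factor of 2, 54 libraries lay above and 73 below the median of Ttr.

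Days 1 to 3, the shared days with sex and day only, the interactions and the difference between the sexes were chosen after seeing the data. The list of 50 companions kept at least 35 genes under every alternative run. Among single rats the depth was ample for Ttr (17 counts at least), but 15 of the 51 genes had 0 counts in some library, so their lowest levels are limited by depth.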

Other observations

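The 5 libraries with a failed quality-control label held 341 (Male 95), 5626 (Male 104), 4648 (Female 95), 6980 (Female 107) and 1873 CPM (Male 120) of Ttr. Folr1 was at 5.36, 32.7, 25.8, 36.0 and 14.0 CPM in the same libraries. Male 104 and Female 107 were above the median of the 245 libraries for 49 of the 51 genes each, Female 95 for 43, Male 120 for 6 and Male 95 for 0. According to the study, the failed males had low RNA integrity or a very large library. The failed females were removed because their labeled sex conflicted with their sex-specific gene expression, so their names here follow a doubtful label.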
